A study of Sus scrofa with 36 samples.

Results

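Transcripts of red blood cells and platelets were examined in whole adrenal glands of 36 castrated male pigs. Of the 9 genes, 4 belong to red cells (HBB, SLC4A1, ALAS2 and AHSP) and 5 to platelets (TUBB1, PF4, PPBP, GP9 and ITGA2B). The genes were selected on their log2 values in these arrays across the 6 groups of breed and temperature, as known from earlier results of the same data, so their levels and differences are given as a description and carry no test. Their probes were found by the gene name in the array annotation, or otherwise by the RefSeq transcript or the probe's description. These 9 are among 11437 genes named on the array. They have 17 of its 60305 probes, and 15 of the 17 were among the 45348 probes of the deposited table.

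The pigs were Creole, Large White or Large White x Creole, with 12 castrated males of each, and were growing animals moved to a climatic room at 11 weeks of age. In each breed 6 pigs were slaughtered at 24 °C (thermoneutral, TN) and 6 after 4 to 5 days of heat (heat stress, HS), for which the study's methods give 32 °C and the labels give 30 °C. TN pigs were slaughtered before the temperature was raised and HS pigs after it, so that temperature and day of slaughter cannot be told apart. Littermates came in blocks of 4 and pens held 3 pigs, and neither is given with the arrays, so the p-values below treat pigs as separate samples. RNA was labelled with a single dye, and each pig had 1 array on 1 of 5 slides, each with as many TN as HS pigs. The breeds were not spread evenly over the TN and HS pigs of a slide. The number of arrays limits the precision. The scanner software set 42436 to 48060 probes of an array well above background.

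A mature red cell carries mostly globin and a small residue of other transcripts from its time as a precursor in the bone marrow. HBB encodes the beta chain of haemoglobin, AHSP a chaperone that holds free alpha chains, ALAS2 the erythroid enzyme that starts haem synthesis, and SLC4A1 the anion exchanger of the red cell membrane (band 3). Platelets have no nucleus and keep RNA of the megakaryocyte that shed them: TUBB1 encodes a beta-tubulin of the platelet's marginal band, PF4 and PPBP are chemokines of its alpha granules, GP9 is a subunit of the receptor for von Willebrand factor, and ITGA2B is the alpha chain of the fibrinogen receptor. In a gland, both kinds of RNA come with the blood in its vessels. In such bulk samples fewer cells of a type and less RNA per cell cannot be told apart.

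On Sscrofa11.1, RefSeq places HBB at chr9:4800683-4801941, SLC4A1 at chr12:18957813-18975266, ALAS2 at chrX:47871519-47896041 and AHSP at chr3:17059340-17060343. Of the platelet genes, TUBB1 is at chr17:59161420-59168385, PPBP at chr8:70021468-70022490, GP9 at chr13:71558768-71565134 and ITGA2B at chr12:18860739-18877381. PF4 was named by its description alone. The position of each probe within its gene was not determined here.

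The probes are shown first because several results turn on what a probe reads. The following 60-base probes were copied from the array annotation, 5′ to 3′, and capitals mark a stop codon that ends an open frame. PPBP and GP9 end in such a codon. The TUBB1 probe is shown because its values followed those of other tubulins, and the SLC4A1 probe because it was rarely detected.
PPBP, second probe, in 2 spots: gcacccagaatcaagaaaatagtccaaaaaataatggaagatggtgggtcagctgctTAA
GP9, leading probe: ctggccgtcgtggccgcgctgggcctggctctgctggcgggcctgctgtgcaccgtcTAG
TUBB1, leading probe: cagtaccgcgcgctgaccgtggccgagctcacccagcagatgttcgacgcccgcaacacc
SLC4A1, second probe: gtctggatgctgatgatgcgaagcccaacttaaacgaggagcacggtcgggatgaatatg

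The leading probe of a gene is the one with the highest mean value. For SLC4A1 it is another probe than the one above, and its first 15 bases are the last 15 bases of the probe of NEK6, a kinase of the mitotic spindle. The last 30 bases of the NEK6 probe and the first 30 of the SLC4A1 probe are given with the shared bases in capitals.
NEK6, last 30 bases: gatgcaacctttgctTTGTACTTGTTCTCC
SLC4A1 leading probe, first 30 bases: TTGTACTTGTTCTCCatggttgaaataaaa

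For HBB and AHSP, whose values moved together from pig to pig, the first 30 bases identify the probes.
HBB, leading probe: ctttaaaacagaaaagacttacatttgctt
AHSP, the oligo of both spots: tgtctaagaaacccttaaatgccgcttctg

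Detection separated the probes of single genes. Both AHSP spots and the leading HBB probe were well above background on 36 of 36 arrays, and the second HBB probe on 34. The leading SLC4A1 probe reached 36 arrays, whereas the second SLC4A1 probe reached 3 and another spot of the same oligo, which carries no gene name, reached 5. TUBB1 was split in the same way, with 36 arrays for its leading probe and 0 for its second. PPBP was near the limit: its leading probe was well above background on 24 arrays and the probe printed above on 6 and 7 arrays in its 2 spots. PF4 reached 33 arrays, and the probes of ALAS2, GP9 and ITGA2B reached all 36. SLC4A1, TUBB1 and PPBP thus each had at least 1 probe that was near background on most arrays. The values of PPBP rest mainly on the leading probe, and those of SLC4A1 and TUBB1 on it alone. Which transcripts the leading SLC4A1 and TUBB1 probes read was not tested, so these genes are counted as red cell and platelet members by annotation only.

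**Figure D1:**
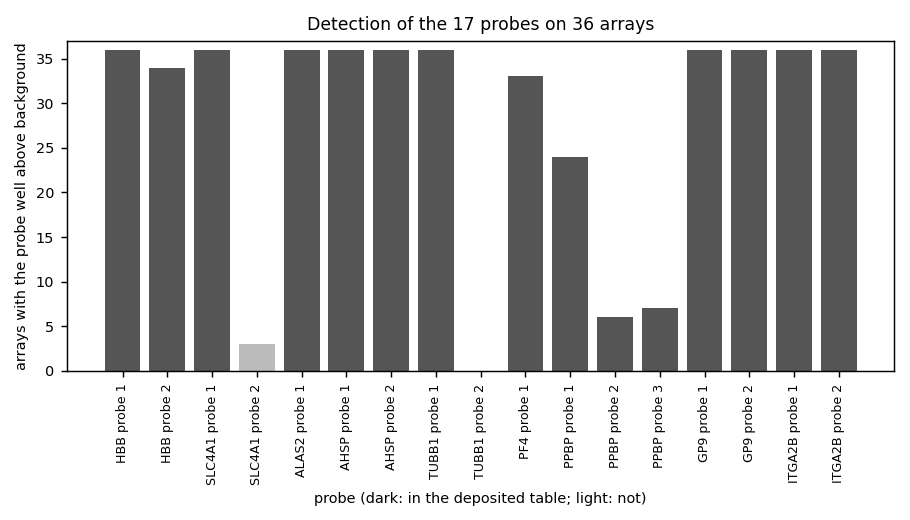
Number of arrays, of 36, on which each of the 17 probes was well above background; probe 1 of a gene is the one with the highest mean, dark bars are probes in the deposited table and light bars are not. The second probes of SLC4A1 and TUBB1 were detected on 3 and 0 arrays, against 36 for the first probe of each.

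HBB varied most among the 9 leading probes, over a 12.9-fold range across the 36 pigs. All values are log2 values of the deposited table. In Creole pigs the lowest, median and highest HBB values were 8.73, 9.28 and 11.10 in TN and 7.81, 9.25 and 10.35 in HS. Those of Large White pigs were 9.04, 10.03 and 11.30 in TN and 8.07, 9.19 and 10.43 in HS. Those of the cross were 8.77, 10.06 and 10.60 in TN and 7.61, 9.0045 and 11.21 in HS. TN and HS pigs overlapped in every breed, and the lowest pig of each HS group lay under the lowest TN pig of its breed.

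Over all breeds HBB averaged 9.86 ± 0.79 in TN and 9.19 ± 0.96 in HS pigs (SD, n = 18 each). The difference between HS and TN was -0.67 (SE 0.29), and 13 of 18 HS pigs were under the average of their breed's TN pigs. It was -0.40 in Creole, -0.93 in Large White and -0.67 in crossbred pigs, each with an SE of 0.51. With 1 pig of the breed left out it lay between -0.64 and -0.09 in Creole (the latter without TN pig 4), between -1.17 and -0.70 in Large White, and between -1.08 (without HS pig 6) and -0.36 (without HS pig 3) in crossbred pigs. The second HBB probe gave -0.42 (SE 0.24). Within the slides the HBB difference was below 0 on 4 of 5 and lay between -1.38 and 0.25. These slide values are not adjusted for breed. On slide 1, which gave -1.38, both TN pigs were Large White and the HS pigs Creole and crossbred, so breed and temperature cannot be told apart there.

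HBA, the alpha chain that pairs with beta in haemoglobin, is no member of the group and was therefore tested in the fit over all probes. It averaged 15.34 ± 0.81 in TN and 14.65 ± 0.88 in HS pigs (SD, n = 18 each). Its difference of -0.68 (SE 0.27) had an adjusted p of 0.224 with limma and missed the FDR of 0.05, with 14 of 18 HS pigs under the average of their breed's TN pigs. HBA spanned a 12.2-fold range across the pigs.

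AHSP, the alpha chain chaperone, spanned a 9.26-fold range. In Creole pigs its lowest, median and highest values were 7.58, 7.89 and 8.60 in TN and 7.34, 8.27 and 8.70 in HS. In Large White pigs they were 7.97, 8.51 and 10.55 in TN and 7.83, 8.49 and 9.30 in HS. In the cross they were 8.07, 8.55 and 8.89 in TN and 7.65, 8.14 and 9.77 in HS. The groups overlapped, and the high values came from single pigs: Large White TN pigs 2 and 3 and crossbred HS pig 6. HS minus TN was 0.19 in Creole, -0.51 in Large White and -0.20 in crossbred pigs (SE 0.36 each). These values rest on the high pigs: without Large White TN pig 2 the Large White value was -0.20, and without TN pig 3 -0.29, while without crossbred HS pig 6 the crossbred value was -0.50. With any 1 pig of the breed left out, AHSP ranged from 0.08 to 0.35 in Creole, from -0.71 to -0.20 in Large White and from -0.50 to -0.07 in crossbred pigs. Large White exceeded Creole pigs by 0.68 (SE 0.25). This difference includes the high Large White TN pigs 2 and 3, at 10.55 and 10.06, and was not computed without them.

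ALAS2, which makes the first haem precursor in red cell precursors, hardly varied. Its values lay between 6.01 and 6.67 in all 36 pigs, a 1.58-fold range, and HS minus TN was -0.02 (SE 0.05). In Creole pigs the median was 6.26 in TN and 6.29 in HS. In Large White pigs it was 6.39 and 6.38, and in the cross 6.29 and 6.34. No group stood apart. Whether this probe lies on the strand that reads ALAS2 mRNA was not settled here.

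SLC4A1, by its leading probe, averaged 12.01 and spanned 11.36 to 12.95. The TN and HS medians were 12.13 and 12.01 in Creole, 12.10 and 11.96 in Large White, and 11.79 and 11.77 in crossbred pigs. HS minus TN was -0.05 (SE 0.10). As described above, this probe shares its first bases with the NEK6 probe, and the SLC4A1 probe that shares none was well above background on 3 arrays. NEK6 was the gene most like it in the series, with r = 0.91 over 36 pigs. Which transcript the leading SLC4A1 probe reads was not tested.

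**Figure D2:**
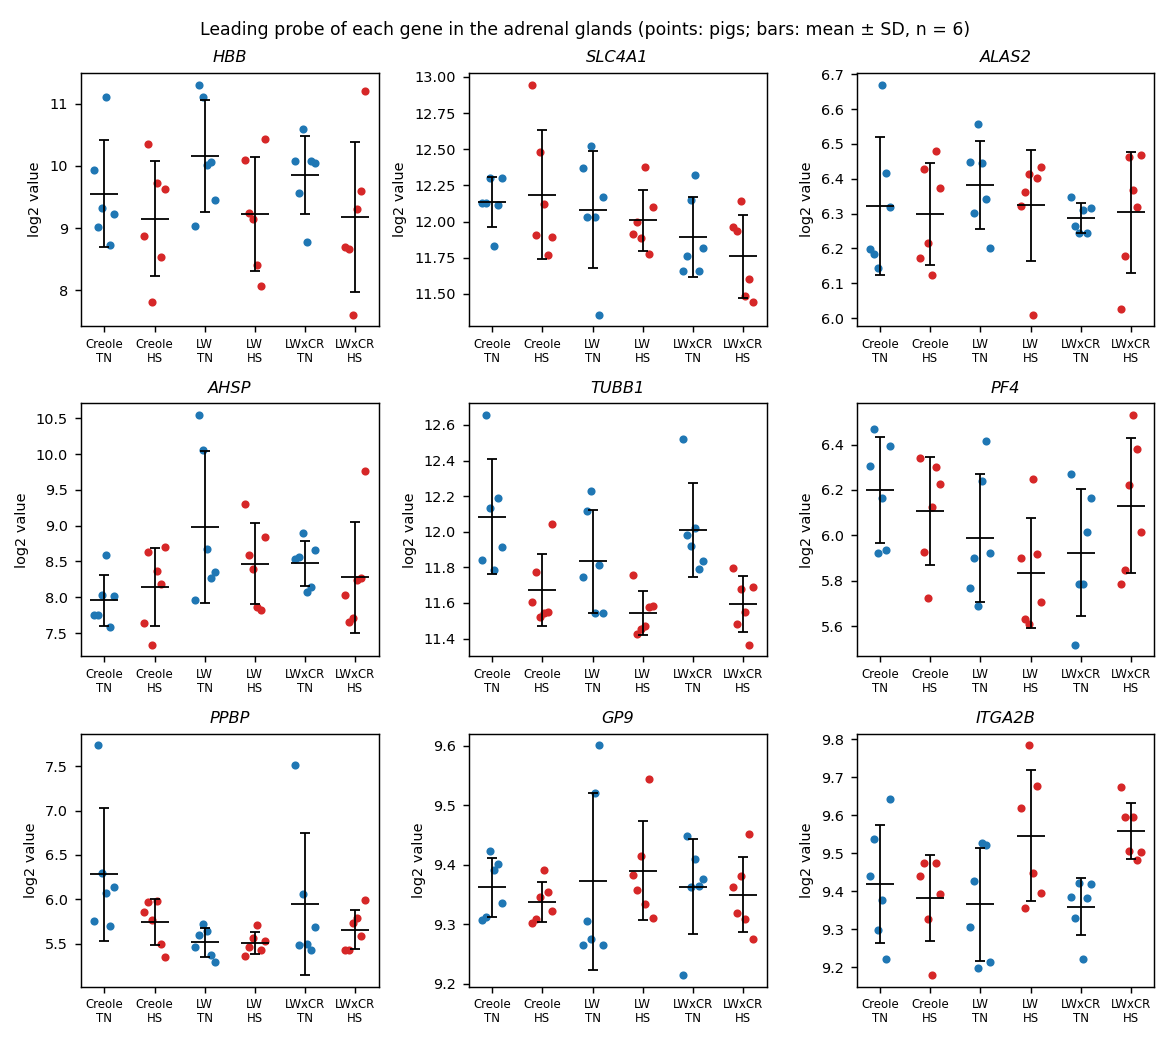
Log2 value of the leading probe of each gene in each pig (points; blue TN, red HS), with mean ± SD of the 6 pigs of a group (bars); each panel has its own vertical scale, and LW, CR and LWxCR stand for Large White, Creole and their cross. HBB and AHSP spread over several log2 units within groups, PPBP is high in single TN pigs, and GP9 stays between 9.21 and 9.60.

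TUBB1, the platelet beta-tubulin, was the member with the most even difference between TN and HS. In Creole pigs the lowest, median and highest values of its leading probe were 11.78, 12.02 and 12.66 in TN and 11.52, 11.58 and 12.04 in HS. In Large White pigs they were 11.54, 11.78 and 12.23 in TN and 11.43, 11.52 and 11.75 in HS. In the cross they were 11.79, 11.95 and 12.52 in TN and 11.36, 11.61 and 11.80 in HS. All 18 HS pigs were under the average of their breed's TN pigs, and 13 of 18 under the lowest of them, although the ranges overlapped in each breed.

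The TUBB1 mean was 11.98 ± 0.30 in TN and 11.60 ± 0.16 in HS pigs (SD, n = 18 each), and HS minus TN was -0.37 (SE 0.08), or 1.30-fold lower in HS. It was -0.41 in Creole, -0.29 in Large White and -0.42 in crossbred pigs (SE 0.13 each), and stayed below 0 in each breed with any 1 pig left out (-0.49 to -0.21). On the slides, without adjustment for breed, it ranged from -0.64 to -0.06 and was below 0 on 5 of 5. The genes most like this probe were 2 other beta-tubulins that many cells make, TUBB2B with r = 0.96 and TUBB2A with r = 0.88 over 36 pigs. Beta-tubulins share long stretches of sequence, and the second TUBB1 probe was well above background on 0 arrays. Which tubulin transcripts the leading probe reads was not tested.

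Both tubulins were tested in the fit over all probes. They were picked for their likeness to the TUBB1 probe, whose gene was selected on these values. Their p-values are therefore not independent of that choice and are no separate test of TUBB1. TUBB2B averaged 12.58 ± 0.30 in TN and 12.26 ± 0.16 in HS pigs and fell by 0.32 (SE 0.08, adjusted p = 0.0306 with limma, n = 18 each). TUBB2A averaged 12.92 ± 0.22 and 12.61 ± 0.16 by the probe most like TUBB1 and fell by 0.31 (SE 0.06, adjusted p = 0.0115 with limma, n = 18 each). The TUBB2A probe of highest mean had a difference of -0.16 (SE 0.05, adjusted p = 0.112 with limma) and r = 0.36 with TUBB1. Of the 5 TUBB2A probes, 1 passed the FDR, and the r of the 5 with TUBB1 ran from -0.03 to 0.88. The TUBB2B call was lost when the arrays of slide 1, 2, 3 or 4 were left out, or Large White TN pig 2, Large White HS pig 4 or crossbred HS pig 2 or 5, with a difference of -0.35 to -0.24 and adjusted p up to 0.180. The TUBB2A call was lost without slide 2, 3 or 4, with a difference of -0.32 to -0.26.

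PPBP, the precursor of a platelet chemokine, was high in a pair of TN pigs. By the leading probe the lowest, median and highest values of Creole pigs were 5.70, 6.10 and 7.74 in TN and 5.35, 5.81 and 5.98 in HS. Those of Large White pigs were 5.29, 5.53 and 5.72 in TN and 5.36, 5.49 and 5.70 in HS. Those of the cross were 5.43, 5.59 and 7.52 in TN and 5.42, 5.66 and 5.99 in HS. Creole TN pig 2, at 7.74, and crossbred TN pig 1, at 7.52, stood above the other 34 pigs, which reached 6.29. The same pigs were highest on both other PPBP spots, at 7.68 and 7.66 and at 7.83 and 7.49.

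HS minus TN was -0.28 (SE 0.15) for the leading PPBP probe. The spots of the printed probe were well above background on 1 of 18 HS arrays each, so no difference is given for them. Without the pair of high pigs the leading probe gave -0.08. The difference was -0.54 in Creole, -0.01 in Large White and -0.29 in crossbred pigs (SE 0.26 each). In Large White pigs the probe was well above background on 3 of 6 TN and 2 of 6 HS arrays, so that value compares signal near background. Without Creole TN pig 2 the Creole value was -0.25, and without crossbred TN pig 1 the crossbred value was 0.02. On the first spot of the printed probe, 4 of 6 Creole TN pigs and 0 of 6 Large White TN pigs were well above background. The mean there was 6.19 against 5.30. With the dim group held at the lowest detectable level of each array, Creole TN pigs were at least 1.60-fold higher on this spot, or at least 1.30-fold without Creole TN pig 2. On the other spot of the same oligo, 4 of 6 Creole TN pigs and 1 of 6 Large White TN pigs were well above background, with means of 5.98 and 5.44. These means lie closer together than the bound of the first spot. The bound was therefore not repeated by the same oligo, and no difference is read from either spot.

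The pair of high PPBP pigs was also highest for other probes. Creole TN pig 2 and crossbred TN pig 1 held the first and second places for TUBB1 (12.66 and 12.52) and TUBB2B (13.30 and 13.10). They did so too for FABP7, a fatty acid binding protein of glial cells, with 8.05 and 7.64 against at most 6.61 in the other 34. For CMTM5, which is on the list of other platelet genes and is also made by glial cells, the leading probe gave 9.66 and 9.83 against at most 9.28. For HBB they ranked 26 and 9 of 36, and for the mean of the platelet list 12 and 24. Both pigs were hybridised on slide 2.

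PF4, a granule chemokine like PPBP, reached 6.47 and 6.27 in the pair of high PPBP pigs and up to 6.53 in the others. In Creole pigs the lowest, median and highest values were 5.92, 6.23 and 6.47 in TN and 5.72, 6.18 and 6.34 in HS. In Large White pigs they were 5.69, 5.91 and 6.42 in TN and 5.61, 5.80 and 6.25 in HS, and in the cross 5.52, 5.90 and 6.27 in TN and 5.78, 6.12 and 6.53 in HS. All groups overlapped, and HS minus TN was -0.01 (SE 0.09). The probe shares 46 bases in a row with an unnamed probe of the array, with which it had r = 0.77, and its likest named gene was the chemokine CXCL2 (r = 0.78).

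GP9 and ITGA2B, subunits of platelet surface receptors, spanned narrow ranges. GP9 lay between 9.21 and 9.60, a 1.31-fold range, with HS minus TN at -0.01 (SE 0.03). ITGA2B lay between 9.18 and 9.78, a 1.52-fold range. Over all breeds HS minus TN of ITGA2B was 0.11 (SE 0.05), and also 0.11 (SE 0.05) on the other spot of its oligo. Within the slides, without adjustment for breed, the leading probe gave 0.03 to 0.19. By breed its difference was -0.04 in Creole, 0.18 in Large White and 0.20 in crossbred pigs (SE 0.08 each). Crossbred pigs had 9.22 to 9.42 in TN and 9.48 to 9.67 in HS, so that these ranges did not overlap. This was the only case among the 15 probes, and 0.809% of all probes complete on the arrays had ranges apart in the cross. In the other breeds ITGA2B overlapped, where 0.172% (Creole) and 0.371% (Large White) of all probes did not.

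**Figure D3:**
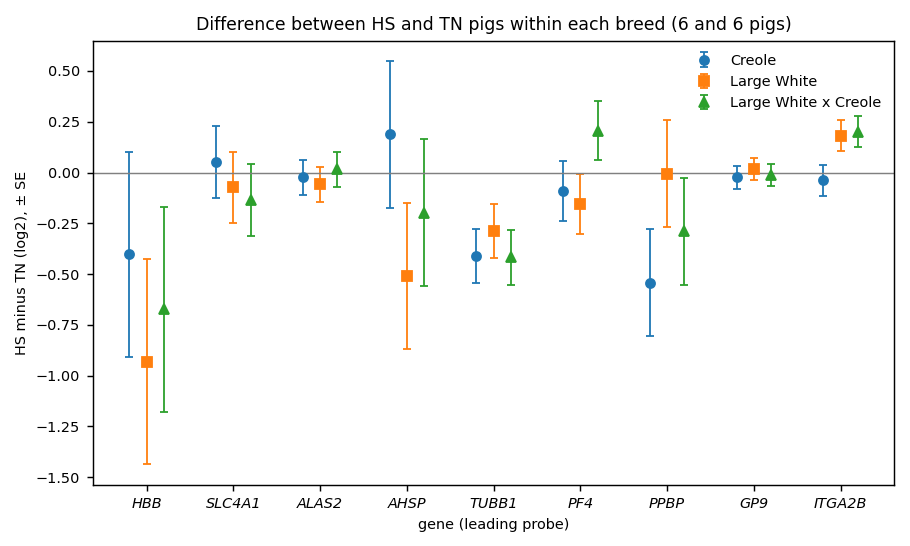
HS minus TN of the leading probe of each gene within each breed (log2, points; bars ± SE from limma, 6 TN and 6 HS pigs). HBB and TUBB1 lie below 0 in the 3 breeds, the SE of HBB being the wider, while ALAS2 and GP9 lie close to 0.

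Over all 15 probes in the table, 1 passed the FDR of 0.05 for temperature in limma, the leading TUBB1 probe, against 0.911% of all 45348 probes (0.501% lower and 0.41% higher in HS). For breed 0 of 15 passed, against 10.6% of all probes, and for the interaction of breed and temperature 0 of 15, against 0% of all (1914 of all probes had an unadjusted p under 0.05). The TUBB1 probe passed in 10 of 13 alternatives and with any of the 36 pigs left out. It did not pass without slide 2, 3 or 4, where HS minus TN was -0.30, -0.39 and -0.35. With this choice of genes nothing is read from these counts, nor from how often the TUBB1 call held. The median HS minus TN was -0.20 over the 6 red cell probes and -0.01 over the 9 platelet probes, and 0.00 over all probes. In the order of the 6 group means of each leading probe, all 45 gaps between neighbours were smaller than the SD within groups, and all 45 pairs of neighbouring ranges overlapped.

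Pigs of the same group differed in HBB and AHSP together. In deviations from the 6 group means, the leading probes had Pearson r = 0.85 and Spearman rho = 0.84 over 36 pigs. Since the genes were selected on these arrays, correlations between them are a description with no p, and pigs may share litters and pens. The relation was positive in 6 of 6 groups, r was 0.87 without the 2 pigs farthest from the HBB median, and r was 0.85 with slide means removed. HBB and HBA, in the same deviations, had r = 0.97, and AHSP and HBA r = 0.88.

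This was the highest r of the 36 pairs of leading probes. Of the 6 pairs of red cell members, r ran from -0.37 to 0.85, the lowest being HBB and SLC4A1. ALAS2 had r = 0.32 with HBB and 0.35 with AHSP. The 10 platelet pairs ran from -0.35 to 0.57. TUBB1 and PPBP, at 0.57 (rho = 0.31), dropped to r = 0.14 without the 2 pigs farthest from the TUBB1 median, so that the value rests on those pigs. Between red cell and platelet members the 20 pairs ran from -0.34 to 0.36 with a median of -0.01, and HBB and PPBP had r = 0.12.

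**Figure D4:**
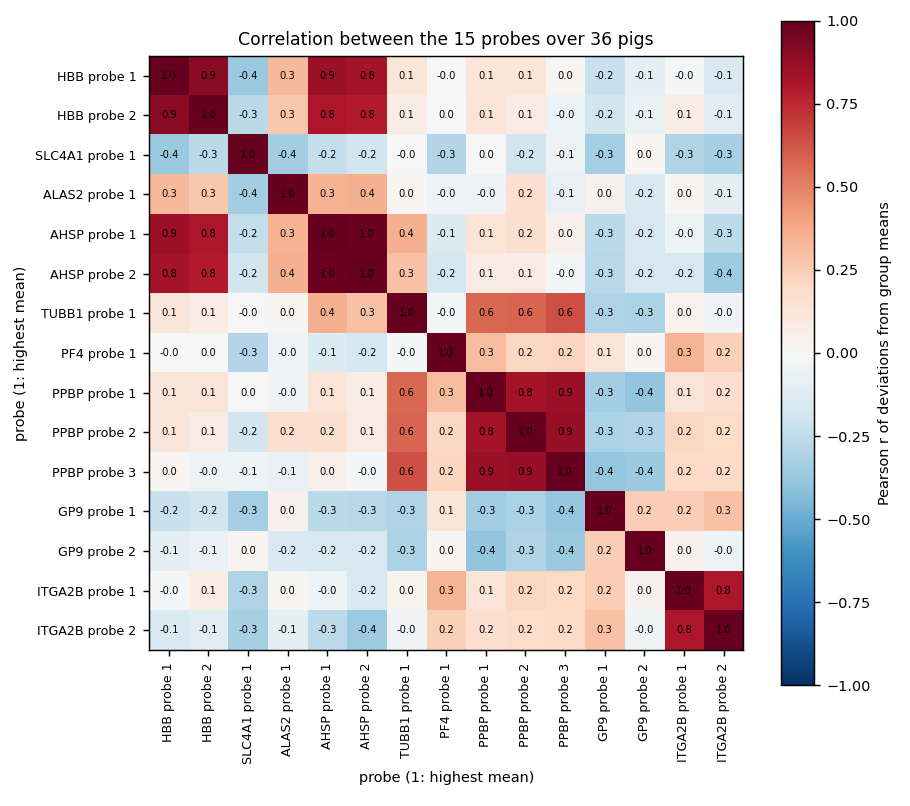
Pearson r between the 15 probes in the deposited table over 36 pigs, after the mean of each group was subtracted; probe 1 of a gene has the highest mean. The HBB and AHSP probes form a block above 0.7 and the PPBP probes another, while platelet genes other than TUBB1 and PPBP stay under 0.4 with one another.

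Probes of a single gene were compared in the same way. The HBB probes had r = 0.90 and the AHSP spots, the same oligo, 0.98. The leading PPBP probe had 0.83 and 0.86 with the spots of the printed probe. The ITGA2B spots, again 1 oligo, had 0.80. The GP9 probes, which read different stretches, had 0.24, in a gene whose spread across pigs was the least.

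The gene most like each member, in deviations over the 36 arrays, was HBA for HBB and for AHSP, followed by ARG1, a liver-type arginase also held by red cells and neutrophils, for HBB (r = 0.75) and TMEM177 for AHSP (r = 0.70). For SLC4A1 it was NEK6, then ASXL2 (r = 0.78). ALAS2 was most like C4H8orf37 and IFT52 (r = 0.65 each), PF4 most like CXCL2 and DST (r = 0.74 for DST), and PPBP most like FABP7 (r = 0.88, rho = 0.62) and RAB15 (r = 0.87). GP9 was most like SLC22A6 and KIAA1147 (r = 0.76 each), and ITGA2B most like CCNI2 (r = 0.67) and TESK1 (r = 0.65). These were picked as the highest of all named probes and are a description. For HBB and AHSP alone was the likest gene another red cell gene, and for no platelet member was it another gene of the platelet list.

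**Figure D5:**
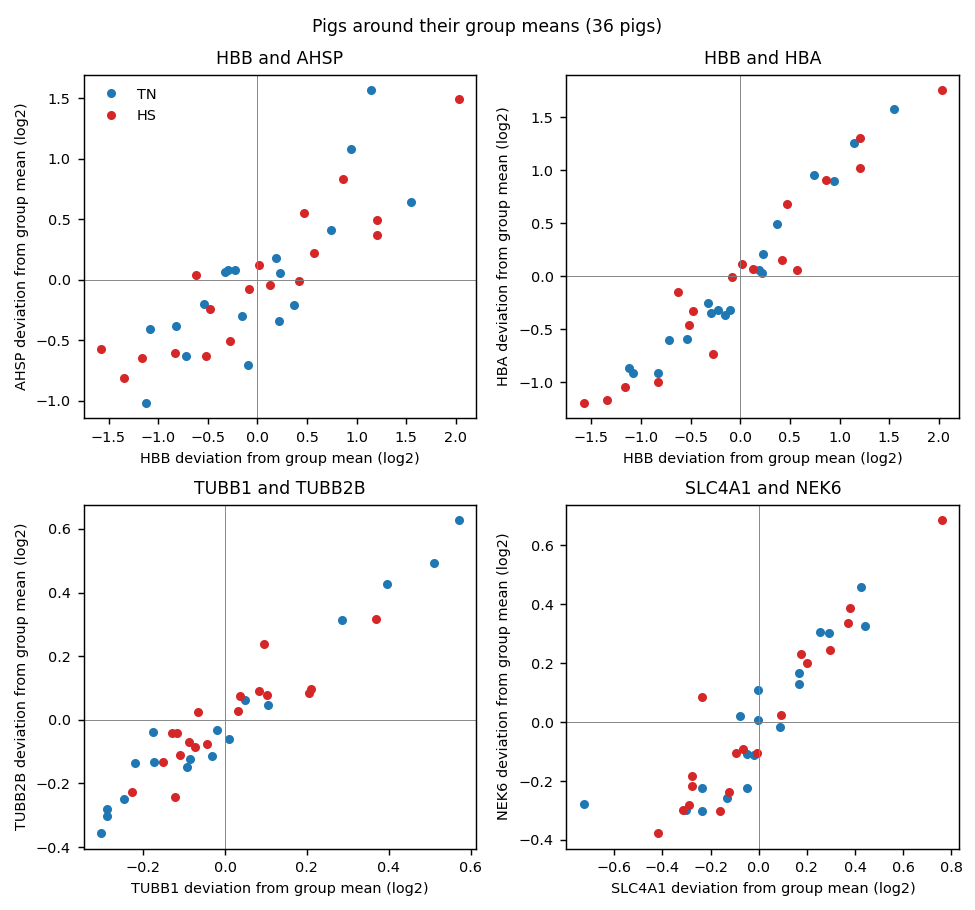
Deviation of each pig from its group mean (log2; blue TN, red HS) for HBB against AHSP and HBA, TUBB1 against TUBB2B, and SLC4A1 against NEK6; each panel has its own scales. The points follow a line in each panel, with r of 0.85, 0.97, 0.96 and 0.91 in that order.

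Other genes of the same cells were taken from lists. Of 22 probes of 15 other red cell genes, 0 passed the FDR for temperature in limma (5 at an unadjusted p under 0.05, which 13.5% of all probes had), and the median HS minus TN was -0.04. For breed 4 passed, beside 10.6% of all probes. They were 3 probes of EPOR, the erythropoietin receptor, higher in Large White than in Creole pigs by 0.50 (SE 0.13, adjusted p = 0.0111), 0.53 and 0.38, and CA1, a red cell carbonic anhydrase, higher by 0.37 (SE 0.10, adjusted p = 0.00955). The list had 0 breed calls without slide 2, 2 without slide 3 and 1 without slide 5. CA1 had r = 0.55 with AHSP and 0.28 with HBB. Apart from HBA, the r of these probes with HBB ran from -0.46, for the membrane anchor ANK1, to 0.51, for a probe of the embryonic globin HBE1. The 3 HBE1 probes had 0.46, 0.48 and 0.51, and were well above background on 26, 17 and 26 arrays. Among regulators of red cell precursors r with HBB was 0.45 for NFE2, 0.03 for GATA1, -0.01 for the leading KLF1 probe and -0.37 for the leading GFI1B probe. With AHSP, NFE2 had 0.55 and that GFI1B probe -0.43.

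Of 35 probes of 16 other platelet genes, 0 passed for temperature (4 at an unadjusted p under 0.05, beside 13.5% of all probes), with a median of -0.02. For breed 5 passed, beside 10.6% of all probes, and 2, 2 and 3 without slide 1, 3 or 4. TBXAS1, the thromboxane synthase, was lower in Large White than in Creole pigs by both its called probes, at -0.37 (SE 0.08, adjusted p = 0.000951) and -0.37 (SE 0.09). ALOX12, a lipoxygenase of platelets, had 2 probes that passed and averaged 9.21 in Creole, 9.38 in Large White and 9.09 in crossbred pigs by the brighter one. Its remaining probe did not pass and was highest in the cross, with 7.18, 7.13 and 7.38 in the same order. ITGB3, the beta chain that pairs with ITGA2B, passed by 1 probe, with 7.13, 6.98 and 6.83 in the same order. Of 15 probes of 6 haem synthesis genes 0 passed for temperature in limma (2 at an unadjusted p under 0.05) and 1, of UROS, for breed.

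Markers of other cells are given beside the members. Of 7 neutrophil probes from 5 genes, all 7 differences between HS and TN were below 0, beside 22675 of all 45348 probes, with a median of -0.18. Of the 7, 3 had an unadjusted p under 0.05, beside 13.5% of all probes. S100A8, a calcium binding protein of neutrophils, fell by 0.71 (SE 0.15, adjusted p = 0.0182 with limma, n = 18 each), with 16 of 18 HS pigs under the average of their breed's TN pigs. Its call was lost when any 1 of the 5 slides was left out, with a difference of -0.77 to -0.63 and adjusted p of 0.0504 to 0.106. S100A8 had r = 0.51 with AHSP and 0.26 with HBB. The mean of the neutrophil list lay between 8.05 and 9.44 in TN and between 7.52 and 8.65 in HS pigs. The 2 neutrophil probes that passed the F test for breed were of S100A12 and CXCR2. Against Creole pigs, Large White pigs differed by -0.99 (SE 0.19) in S100A12 and by 0.26 (SE 0.10) in CXCR2. For CXCR2 this difference itself missed the FDR (adjusted p = 0.102 with limma), and crossbred pigs were lowest, at 7.38. The median Large White minus Creole difference of the 7 was 0.29. Of 17 probes of 8 other leukocyte genes 0 passed for temperature (2 at an unadjusted p under 0.05) and 1, of CD3D, passed for breed. Of 24 endothelial probes 0 passed for temperature (0 at an unadjusted p under 0.05) and 1, of KDR, passed for breed. Over all probes 10.6% passed for breed.

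Of the gland's own cells, 1 of 32 cortex probes, of NR5A1, was lower in HS (-0.25, SE 0.06, adjusted p = 0.0253 with limma), and 11 had an unadjusted p under 0.05. For breed 12 passed, beside 10.6% of all probes. They were of HSD3B1, STAR and CYP21A2, all lower in Large White than Creole pigs. The NR5A1 call was lost without any 1 of the 5 slides, with a difference of -0.27 to -0.20 and adjusted p of 0.0615 to 0.141. In the medulla and adipocyte lists 0 passed for temperature (8 of 25 and 1 of 23 at an unadjusted p under 0.05, beside 13.5% of all probes). In the medulla list 21 of 25 probes, of CHGA and CHGB, passed for breed, all higher in Large White, and 20 of 23 adipocyte probes, of ADIPOQ, FABP4 and PLIN1, all lower. All 32 cortex probes, of 7 genes, and all 25 medulla probes, of 5 genes, had HS means below TN means, at medians of -0.09 and -0.16. So did 22675 of all 45348 probes, and probes of 1 gene are not independent of each other. Their part in the values of the red cell and platelet genes was not tested.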

How the data were processed

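Adrenal RNA of 36 pigs was hybridised to 1-colour porcine arrays, and spots were read with Agilent Feature Extraction (10.10.1.1, per the submitters' processing notes). Spot intensity in the deposited scanner files is as scanned. The values used here are log2 median intensity of 45348 probes, which the authors filtered, quantile normalized and deposited as a table. Alternatives started from the scanner intensity. The table held 0 columns of other samples and 93 missing values in 87 probes.

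Groups came from the labels. Probes were named by annotated gene name (21481), RefSeq accession (2941), older symbol (181) or description (3), and 35699 had no name. The leading probe of a member is that of the highest mean, and other genes are given by the probes that passed or were most like a member. With limma 3.58.1 (R 4.3.3), lmFit and eBayes fitted breed and temperature to all probes, with breed tested by an F test and the interaction in a fit of the 6 groups, Benjamini-Hochberg adjustment over all probes and an FDR of 0.05. The study's model also held terms for pen, slaughter day and parents, which were not used here. Correlations used deviations from group means and are given without the planned permutation p, since the members were selected on these data. Named genes are the members, genes of the lists with a probe past the FDR, up to 10 a list, and the 2 named genes most like each member. ANK1, HBE1, NFE2, GFI1B, GATA1, KLF1 and CMTM5 were named after their values were seen. Members and lists were chosen with earlier results of these data known. The procedure was tested on simulated data.

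Quantile normalization sets all arrays to one distribution, so values are relative to the other probes of the array. Alternatives were scanner median values, the 75th percentile of processed signals, normexp background correction (offset 50), other filters, slide as a block, array weights, no breed term, and slides or pigs left out.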

Additional observations from a re-analysis of the deposited data

Results flagged for a closer look

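In 90 tests, 15 probes in 6 groups, 10 found a pig far from the 5 others of its group (Dixon's critical value of 0.625 for 6 samples). Chance flags about 1 in 20 groups. Several of the 10 are spots of 1 gene.

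Crossbred TN pig 1 gave 5 of them. It was highest for PPBP on all spots, at 7.52, 7.66 and 7.49, and for TUBB1 at 12.52, and lowest for GP9 at 9.21. Creole TN pig 2 was highest for the leading PPBP probe at 7.74 and lowest for the second GP9 probe at 6.03. Crossbred HS pig 6 was highest for both AHSP spots, at 9.77 and 9.59, and was also the highest crossbred HS pig for HBB, at 11.21. Large White HS pig 4 was lowest for ALAS2, at 6.01, against 6.32 to 6.43 in the others of its group.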

How the results depend on the processing

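HS minus TN of the leading probes kept its sign in every alternative other than single slides, and with any pig left out, for HBB (-0.80 to -0.57 without a pig), AHSP (-0.27 to -0.06), TUBB1 (-0.40 to -0.34), PPBP (-0.31 to -0.18) and ITGA2B (0.10 to 0.13). Leaving out a pig gave values below 0 for SLC4A1 (-0.10 to -0.02) and ALAS2 (-0.03 to 0.00) and values on both sides of 0 for PF4 (-0.05 to 0.02) and GP9 (-0.02 to 0.01). Above 0 were SLC4A1 without slide 5 (0.01) and ALAS2 with array weights (0.0018) and without slide 1 (0.0063) or 4 (0.01), PF4 from 0.01 to 0.05 and GP9 up to 0.02, both with 75th percentile scaling, with normexp and without a slide (PF4 slide 2 or 5, GP9 slide 3). Within single slides, differences moved by more than the SD for AHSP (-1.42 on slide 1, 0.58 on slide 5), ALAS2 (-0.28 on slide 1, 0.17 on slide 5), TUBB1 (-0.64 on slide 2, -0.055 on slide 5) and PPBP (-1.06 on slide 2, which held both high pigs). Breed was not adjusted for within slides, and on slide 1 both TN pigs were Large White and no HS pig was. The pair left out together, and pigs left out of the differences within breeds and of the PPBP bound, were chosen after seeing the data.

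Probes past the FDR by temperature, 413, became 899 with slide as a block, 751 with array weights and 171, 40, 34 and 53 without slide 1, 2, 3 or 4. They lay between 229 and 819 with 1 pig left out, and moved by over 1.5 times without Large White TN pig 2, crossbred HS pig 2, crossbred TN pigs 2, 3 or 4, Large White HS pigs 4 or 5, or Creole HS pig 6. By breed, 4821 became 2673 without slide 2 and 2025 without slide 3, and 4157 to 4897 without a pig. The interaction gave 1 probe without slide 3 (an unnamed probe) or slide 4 (PLPPR5), and 0 to 1 without a pig. Other red cell genes by breed gave 7 probes with no filter and 0, 2 and 1 without slide 2, 3 or 5, and 3 to 7 without a pig. Platelet genes by breed gave 2, 2 and 3 without slide 1, 3 or 4, and 4 to 6 without a pig. By temperature both lists stayed at 0, except for 1 THBS1 probe without Creole HS pig 4. The cause of these moves was not tested, apart from fewer arrays where a slide was left out. The r of HBB and AHSP was 0.87 and 0.85 under its alternatives.

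No paired analysis was possible because the replicate numbers only follow the order of the samples. PPBP and the second SLC4A1 and TUBB1 probes are limited by signal near background, and PPBP and PF4 are not in the fit of probes detected on all arrays.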
